A study of Mus musculus with 165 samples.

Results

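The 9 genes described here are Fcrls, Cx3cr1, P2ry12, P2ry13, Tmem119, Sall1, Siglech, Gpr34 and Csf1r, a set of genes by which resting microglia are recognised in the mouse brain. They were chosen by symbol, as the rows of the deposited count tables whose Ensembl identifiers map to these names, and all 9 were found among 55471 rows. The samples were brains and livers of male mice of the inbred strain C57BL/6J/Ukj, aged 3, 9, 15, 24 and 28 months. The mice were kept only to age, and the labels name no engineered allele and no treatment. There were 15, 16, 16, 17 and 18 brains and 16, 16, 16, 17 and 18 livers at the 5 ages, from 83 mice in all, 1 of which, of 3 months, is represented here by its liver alone. Each library was polyadenylated RNA of 1 mouse, made from bulk tissue.

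Microglia are the resident macrophages of the brain. In the undisturbed tissue they survey their surroundings with moving processes, and they express a group of surface receptors and regulators that is often called the homeostatic signature. Csf1r is the receptor for the growth factors Csf1 and Il34, on which microglia depend for survival. Cx3cr1 is the receptor for Cx3cl1, a chemokine made mainly by neurons. P2ry12 and P2ry13 are G protein-coupled receptors for ADP, and P2ry12 guides microglial processes towards sites of released nucleotides. Gpr34 is a receptor for lysophosphatidylserine. Siglech belongs by sequence to the family of sialic acid-binding lectins (Siglecs), signals through the adaptor Tyrobp and is also made by plasmacytoid dendritic cells. Tmem119 is a membrane protein used as a microglial marker, and Fcrls is a scavenger receptor related to the Fc receptor-like family. Sall1 is a zinc finger transcription factor that maintains microglial identity. When microglia become activated with age or disease, parts of this signature are known to decline while other genes are induced. In a bulk sample, fewer cells of a type and less RNA per cell cannot be told apart, so every level below is a level per brain or per liver RNA, not per microglial cell.

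All 9 genes are protein coding in GRCm38. Fcrls lies on chromosome 3 at 87250758 to 87263738 on the minus strand, with 9 merged exons of 2334 bases. P2ry12 (59216272 to 59262871) and P2ry13 (59207892 to 59210882) are neighbours on the minus strand of the same chromosome. Cx3cr1 is on chromosome 9 (119901616 to 120069879), Tmem119 on chromosome 5 (113793729 to 113800516), Sall1 on chromosome 8 (89027235 to 89044162), Siglech on chromosome 7 (55768178 to 55778925) and Gpr34 on chromosome X (13632089 to 13640858). RefSeq promoters of GRCm38.p6, from 250 bases before to 50 bases after the start of transcription, were matched for 6 of the 9 genes. Those of Fcrls and Cx3cr1 are printed because their levels went opposite ways with age, and those of P2ry12 and P2ry13 because these neighbours varied together from brain to brain. They are the minus-strand sequences of chr3:87263475-87263774, chr9:120068247-120068546, chr3:59262936-59263235 and chr3:59210833-59211132, written 5′ to 3′. Capitals mark GAGGAA, the core letters recognised by PU.1, the myeloid transcription factor encoded by Spi1. Both strands were searched for GAGGAA, that is also for TTCCTC on the strand shown.
Fcrls: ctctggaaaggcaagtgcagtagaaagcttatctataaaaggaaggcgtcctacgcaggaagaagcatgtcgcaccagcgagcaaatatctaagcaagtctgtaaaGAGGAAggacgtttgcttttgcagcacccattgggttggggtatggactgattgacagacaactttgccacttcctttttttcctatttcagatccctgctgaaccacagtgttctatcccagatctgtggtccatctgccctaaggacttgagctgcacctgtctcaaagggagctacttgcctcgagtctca
Cx3cr1: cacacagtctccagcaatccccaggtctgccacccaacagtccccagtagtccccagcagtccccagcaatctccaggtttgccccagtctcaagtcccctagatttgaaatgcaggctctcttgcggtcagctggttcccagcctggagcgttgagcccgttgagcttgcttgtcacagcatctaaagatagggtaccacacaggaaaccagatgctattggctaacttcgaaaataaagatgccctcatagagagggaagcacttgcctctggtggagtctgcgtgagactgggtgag
P2ry12: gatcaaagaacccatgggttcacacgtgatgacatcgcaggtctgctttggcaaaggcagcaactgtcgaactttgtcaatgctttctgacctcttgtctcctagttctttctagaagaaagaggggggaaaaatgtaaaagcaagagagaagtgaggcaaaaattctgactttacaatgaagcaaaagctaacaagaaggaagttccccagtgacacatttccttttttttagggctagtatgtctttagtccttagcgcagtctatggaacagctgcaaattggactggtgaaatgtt
P2ry13: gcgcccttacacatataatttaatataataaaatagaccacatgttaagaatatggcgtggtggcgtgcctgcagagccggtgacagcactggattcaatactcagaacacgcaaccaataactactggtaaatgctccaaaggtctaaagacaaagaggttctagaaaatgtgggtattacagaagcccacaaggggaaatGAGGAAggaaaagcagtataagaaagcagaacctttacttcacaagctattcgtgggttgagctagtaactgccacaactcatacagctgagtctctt
The core letters occurred once in the Fcrls promoter and once in that of P2ry13, on the gene's own strand, and they were not found in those of Cx3cr1 and P2ry12. Over the 8 promoters of the 6 matched genes, of which Sall1 has 3, the letters were present in 3 promoters of 3 genes, the remaining one being Siglech on the opposite strand. Among all 32851 promoters of this length, 28.28% held them.

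Total counts per brain library ranged from 11.5 to 73.4 M and those of liver libraries from 5.82 to 57.5 M. Every member was above the floor of 3 counts in every brain library, with the lowest count, 8, for Gpr34. The labels assign each library to 1 of 3 library preparations (preps), and every prep held 4 to 7 libraries of each age and tissue. Brain 28 months replicate 15 (prep 3, 11.5 M counts) and 24 months replicate 13 (prep 2, 19.7 M counts) stood apart from the other brains. The median correlation of their log2 CPM with the other brain libraries was 0.852 and 0.941, where the next lowest was 0.975. The summed level of 7 neuron genes was 5443 CPM or more in each 3-month brain and 18.5 CPM or less in each 3-month liver. Of the 28-month brains the lowest neuron sum was 3527 CPM with all libraries and 5589 CPM without these 2. Levels and tests in the brain are for all 82 libraries, and counts of calls against 3 months are also given without these 2.

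At 3 months, levels per length of merged exon put Csf1r first among the members in the brain, at 18.5 ± 1.12 CPM per kb (SD, n = 15). P2ry12 followed at 15.2 ± 1.53 CPM per kb, and its highest brain lay below the lowest for Csf1r. Cx3cr1 stood at 12.4 ± 0.832 and Tmem119 at 10.8 ± 1.13 CPM per kb. The values of P2ry12 and Cx3cr1 overlapped between brains, as did those of Cx3cr1 and Tmem119. Below a gap came Gpr34 at 6.27 ± 0.595, Sall1 at 5.44 ± 0.570, P2ry13 at 4.91 ± 0.451 and Siglech at 4.63 ± 0.531 CPM per kb, and each of these overlapped with its neighbour in the order. Fcrls had the lowest level of the 9, 2.32 ± 0.220 CPM per kb, and its brains did not overlap with those for Siglech.

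Against 3 months, Fcrls had a negative log2 fold change at every later age and the other 8 members a positive one, though not all passed. Between 28 and 3 months in the brain, 6 of the 9 members passed the test, against 28.3% of the 18711 genes tested. Fcrls was the 1 member called lower, where 12.0% of genes were lower, and Cx3cr1, Tmem119, Sall1, Siglech and Csf1r were the 5 called higher, where 16.3% of genes were. The median log2 fold change of all 9 members was 0.16, beside 0.01 over all genes. Without the 2 libraries that stood apart, 8 of 9 members passed against 34.1% of genes, 7 of them higher (17.5% of genes) and Fcrls lower (16.6%). The exception was then Gpr34 (log2 fold change 0.19 ± 0.08 SE, adjusted p = 0.0578), and the median of the members was 0.20. Calls are edgeR quasi-likelihood tests with Benjamini-Hochberg adjustment over all genes, at an adjusted p under 0.05.

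At 9 months, 1 member, Cx3cr1, differed from 3 months and was higher, against 0.315% of all genes called and 0.187% called higher. At an unadjusted p under 0.05 there were 6 members, and 1399 of the 18711 genes. Leaving out the 2 libraries, 4 members were higher at 9 months, Cx3cr1, P2ry12, P2ry13 and Siglech, where 0.942% of genes were called and 0.572% were higher. At 15 months Cx3cr1 was again the 1 member called, and higher, against 0.871% of genes called and 0.524% higher. P2ry12 and P2ry13 joined it without the 2 libraries, making 3 members higher, against 1.87% called and 1.17% higher. At 24 months 5 members passed against 10.1% of genes. Of these Cx3cr1, P2ry13, Tmem119 and Csf1r were higher (6.19% of genes) and Fcrls was lower (3.86%). All 9 passed at 24 months without the 2 libraries, 8 higher and Fcrls lower, against 17.1% of genes called, 9.40% higher and 7.68% lower.

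Between successive ages few members moved. From 9 to 15 months, 0 of 9 members and 0% of genes passed the edgeR test. An unadjusted p under 0.05 was found for 0 members and for 532 of the 18711 genes. DESeq2 and voom with quality weights also called 0 members. From 15 to 24 months 0 members passed, against 0.732% of genes (1.23% without the 2 libraries). Unadjusted, 3 members had a p under 0.05, as did 1631 of the 18711 genes. DESeq2 called 0 members and voom with quality weights 2. From 24 to 28 months Fcrls alone passed and was lower, against 1.09% of genes, and this was so without the 2 libraries too (3.58% of genes). In the test of the 4 later ages together, Fcrls, Cx3cr1, P2ry13, Tmem119 and Csf1r passed, 5 of 9 against 20.6% of genes. All 9 passed without the 2 libraries, against 30.3%.

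**Figure D1:**
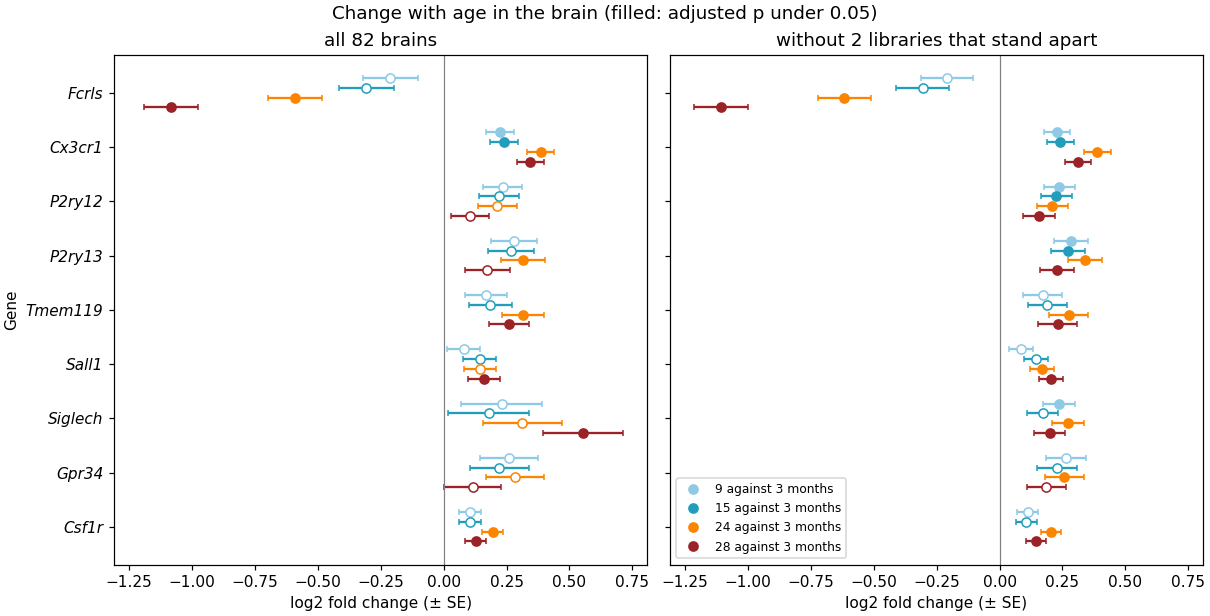
Log2 fold change of each member against 3 months in the brain, with its SE, at 9, 15, 24 and 28 months. The left panel has all 82 brains and the right panel leaves out the 2 libraries that stood apart; filled points passed the test. Fcrls lies left of 0 at every age and furthest at 28 months, and the other 8 members lie right of 0 at every age in both panels.

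Fcrls, the scavenger receptor, fell with age. At 3 months its level ranged from 4.57 to 6.26 CPM over 15 brains, with a median of 5.38. At 28 months it ranged from 1.05 to 4.52 CPM over 18 brains, with a median of 2.59. Every brain at 28 months was thus below every brain at 3 months, although the highest at 28 months came close to the lowest at 3 months. The mean levels at 3, 9, 15, 24 and 28 months were 5.41 ± 0.513, 4.66 ± 0.642, 4.42 ± 0.645, 3.63 ± 0.803 and 2.57 ± 0.907 CPM (SD). The mean was lower at each later age than at the one before it, and at 9, 15 and 24 months 7, 12 and 15 brains lay under the whole 3-month range.

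The log2 fold change of Fcrls from 3 months was -0.21 ± 0.11 (SE, adjusted p = 0.686) at 9 months and -0.31 ± 0.11 (adjusted p = 0.266) at 15 months, neither of which passed. It was -0.59 ± 0.11 (adjusted p = 4.2e-05) at 24 months and -1.08 ± 0.11 (adjusted p = 4.8e-13) at 28 months, so that the level fell by 52.8% to 28 months. From 24 to 28 months alone the log2 fold change was -0.49 ± 0.11 (adjusted p = 0.00737), a call that was lost in each prep fitted alone and when only these 2 ages were fitted. Without the 2 libraries that stood apart, the values were -0.62 at 24 months and -1.11 at 28 months. Both of those libraries had high Fcrls for their age, at 5.19 and 3.68 CPM. Within the preps fitted alone, Fcrls fell by 1.41 in prep 1, 0.90 in prep 2 and 0.90 in prep 3 on the log2 scale, each past the threshold (adjusted p = 1.5e-05, 0.0162 and 7.1e-04). Leaving out any 1 of the 33 brains of 3 and 28 months kept it between -1.14 and -1.04.

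**Figure D2:**
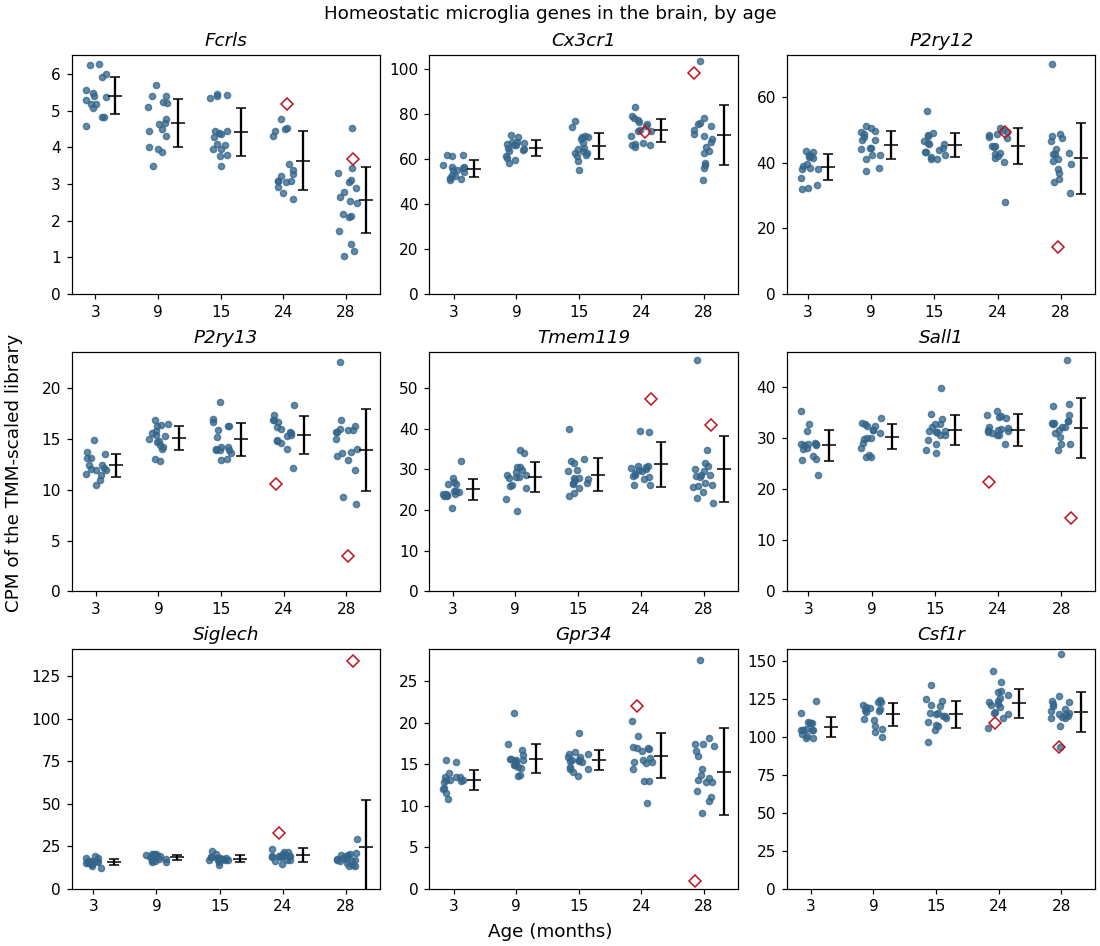
Level of each member in every brain library by age, in CPM of the scaled library. Points are libraries, red diamonds are the 2 libraries that stood apart, and black bars are the mean ± SD (cut at 0 on the axis) over all libraries of the age. The points for Fcrls at 28 months all lie below those at 3 months, while one diamond lies far above the other 28-month points for Siglech and below them for P2ry12, P2ry13, Sall1 and Gpr34.

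Set against the other members within the same brain, the mean log2 ratio of Fcrls was lower at each later age. The ratio itself was not tested, and for Fcrls alone the steps from 9 to 15 and from 15 to 24 months did not pass (adjusted p = 1 and 0.273). The log2 ratio of Fcrls to the mean of the other 8 members, taken as the difference between log2 CPM values, was -2.38 ± 0.17 (SD, n = 15) at 3 months, -2.80 ± 0.19 at 9, -2.88 ± 0.21 at 15, -3.24 ± 0.26 at 24 and -3.68 ± 0.55 at 28 months. The last 2 were, without the 2 libraries, -3.27 ± 0.24 and -3.75 ± 0.47. At 3 months the ratio ran from -2.79 to -2.04. At 28 months it ran from -4.75 to -3.12 without replicate 15, below every 3-month brain; replicate 15, in which several of the other members were low, had -2.48. Against Cx3cr1 alone, whose level rose, the ranges at 3 months (-3.73 to -3.01) and at 24 months (-4.69 to -3.78) were already separate, with all libraries kept. Against Csf1r alone the 28-month mean was -5.56 ± 0.50, against -4.29 ± 0.18 at 3 months.

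**Figure D3:**
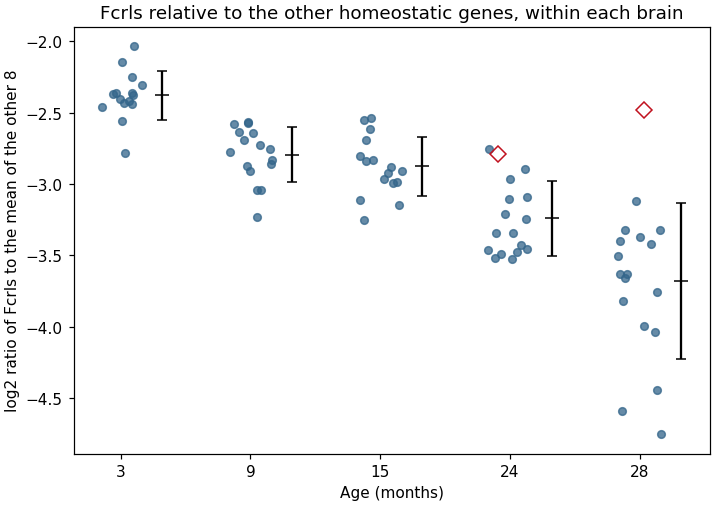
Log2 ratio of Fcrls to the mean of the other 8 members within each brain, by age. Points are libraries, red diamonds the 2 libraries that stood apart, and black bars the mean ± SD. The mean ratio went from -2.38 at 3 months to -3.68 at 28 months, and the diamond at 28 months lies above the other brains of that age.

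Cx3cr1, the chemokine receptor, passed as higher than at 3 months at every later age. It ranged from 50.7 to 61.9 CPM at 3 months, with a median of 55.4, and from 65.4 to 83.3 CPM at 24 months, with a median of 72.7. These ranges were separate, so that each of the 17 brains of 24 months exceeded each of the 15 of 3 months. At 28 months the brains were more dispersed, from 50.8 to 104 CPM with a median of 69.6, and 14 of 18 lay above the 3-month range. The mean levels at the 5 ages were 55.7 ± 3.75, 65.0 ± 3.64, 65.9 ± 5.65, 72.8 ± 5.30 and 70.7 ± 13.5 CPM. The log2 fold change was 0.23 ± 0.06 at 9 months (adjusted p = 0.0425), a call that was lost with no filter and with a filter at a mean of 1 CPM. It was 0.24 ± 0.06 at 15 months (adjusted p = 0.00954); in each prep alone the calls at both of these ages were lost. The value was 0.39 ± 0.06 at 24 months (adjusted p = 2.0e-07) and 0.34 ± 0.05 at 28 months (adjusted p = 6.7e-07). The rise was 26.96% at 28 months, or 24.2% without the 2 libraries. Within preps it was 0.23 in prep 1 (adjusted p = 0.065), 0.45 in prep 2 (adjusted p = 0.0102) and 0.38 in prep 3 (adjusted p = 0.0293).

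Cx3cl1, the ligand of Cx3cr1, fell while its receptor rose. Its mean level was 582 CPM at 3 months and 490 CPM at 28 months, with a log2 fold change of -0.25 ± 0.04 (adjusted p = 1.7e-07) at 28 months and -0.14 ± 0.04 (adjusted p = 0.0119) at 24 months. In the annotation, 78 bases of the exons of Cx3cr1 overlap Gm33858, an antisense gene on the opposite strand. Gm33858 went from 0.545 CPM to 1.46 CPM, a level far under that of Cx3cr1, and this rise of 1.45 on the log2 scale passed (adjusted p = 4.9e-08). Whether reads were counted by strand is not given in the sources used here.

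Csf1r, the growth factor receptor, rose slightly. Its level was 99.4 to 124 CPM at 3 months (median 105), 106 to 144 CPM at 24 months (median 122) and 93.2 to 155 CPM at 28 months (median 115). The ranges overlapped at every age, and 6 of 17 brains at 24 months lay above the 3-month range. The log2 fold change was 0.11 ± 0.04 at 9 months and 0.10 ± 0.04 at 15 months, neither passing (adjusted p = 0.481 and 0.475). It was 0.19 ± 0.04 (adjusted p = 0.00102) at 24 months and 0.13 ± 0.04 (adjusted p = 0.018) at 28 months, a level 9.24% higher. The 28-month call was lost with no filter on low counts (0.115, adjusted p = 0.0865). In single preps the 28-month value was 0.09, 0.22 and 0.09, and none of these 3 passed. Of its ligands, Csf1 was higher at 28 months (30.3 CPM, where the 3-month mean was 25.2 CPM; log2 fold change 0.27 ± 0.05, adjusted p = 3.9e-05), while Il34 gave -0.16 ± 0.06 (adjusted p = 0.0501). Csf1r lies on chromosome 18 (61100598 to 61132149). Its exons share 873 bases with Hmgxb3 on the opposite strand, and Hmgxb3 went the other way, with a log2 fold change of -0.14 (adjusted p = 0.00274).

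The nucleotide receptors P2ry12 and P2ry13 and the lysophospholipid receptor Gpr34 each had their lowest mean at 3 months, as every member but Fcrls did. Their SD was largest at 28 months, as it was for all 9 members. P2ry12 had means of 38.7 ± 3.89, 45.4 ± 4.22, 45.4 ± 3.74, 45.0 ± 5.45 and 41.4 ± 10.8 CPM at the 5 ages. At 3 months its brains ranged from 32.1 to 43.6 CPM (median 39.1), and at 28 months from 14.2 to 70.0 CPM (median 41.8). The 28-month brains therefore extended beyond the 3-month range on both sides, 6 of 18 above it and 2 below. The lowest was replicate 15 and the highest replicate 8. With all libraries P2ry12 passed the edgeR test at no age, with log2 fold changes of 0.23 ± 0.08, 0.22 ± 0.08, 0.21 ± 0.08 and 0.10 ± 0.08 at 9, 15, 24 and 28 months (adjusted p = 0.301, 0.285, 0.069 and 0.321). It passed at all 4 without the 2 libraries, at 0.24, 0.23, 0.21 and 0.16 (adjusted p = 0.0351, 0.0335, 0.0125 and 0.0398). At 28 months it also passed with voom (0.147, adjusted p = 0.027) and with a score of clock output genes as a covariate (0.285, adjusted p = 0.00304). Leaving out replicate 8 lowered the 28-month value to 0.053 (adjusted p = 0.615). The single preps gave 0.05, 0.34 and -0.07, none of which passed, and prep 3 gave 0.09 without replicate 15.

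P2ry13 had means of 12.4 ± 1.14, 15.1 ± 1.19, 15.0 ± 1.63, 15.4 ± 1.87 and 13.95 ± 4.02 CPM. Its brains ranged from 10.5 to 14.9 CPM at 3 months, from 10.6 to 18.3 CPM at 24 months and from 3.45 to 22.6 CPM at 28 months, and the 28-month range enclosed that of 3 months. It was higher at 24 months (log2 fold change 0.31 ± 0.09, adjusted p = 0.0129), and the values at 9, 15 and 28 months were 0.28 ± 0.09, 0.27 ± 0.09 and 0.17 ± 0.09 (adjusted p = 0.247, 0.211 and 0.13). Without the 2 libraries it passed at each age, with 0.34 ± 0.07 at 24 months (adjusted p = 1.3e-04) and 0.23 ± 0.07 at 28 months (adjusted p = 0.00507). Gpr34 had means of 13.1 ± 1.24, 15.6 ± 1.76, 15.5 ± 1.22, 16.0 ± 2.73 and 14.1 ± 5.26 CPM and passed the edgeR test at no age with all libraries, its log2 fold change at 28 months being 0.12 ± 0.11 (adjusted p = 0.463). At 28 months voom and the fit with the clock score called both Gpr34 (0.165 and 0.397, adjusted p = 0.0417 and 0.00352) and P2ry13 (0.226 and 0.376, adjusted p = 0.00195 and 5.9e-04). In preps 1, 2 and 3 P2ry13 gave 0.16, 0.42 and -0.05 and Gpr34 gave 0.15, 0.38 and -0.20, again without passing; leaving replicate 15 out of prep 3 turned its values to 0.12 and 0.01. Over all preps Gpr34 was at 0.045 without replicate 8 and at 0.185 without replicate 15. The 28-month brains for Gpr34 ran from 0.919 CPM in replicate 15, which is 8 counts, to 27.5 CPM in replicate 8. Gpr34 was higher without the 2 libraries at 24 months (0.26 ± 0.08, adjusted p = 0.0153).

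Tmem119 rose at 24 and 28 months. Its brains ranged from 20.6 to 32.1 CPM at 3 months (median 24.4), from 26.1 to 47.3 CPM at 24 months (median 29.9) and from 21.6 to 57.0 CPM at 28 months (median 28.6). The ranges overlapped at every age, and 3 of 17 and 3 of 18 brains lay above that of 3 months. The log2 fold change was 0.32 ± 0.08 (adjusted p = 0.00609) at 24 months and 0.26 ± 0.08 (adjusted p = 0.0113) at 28 months. In single preps the 28-month value was 0.045 in prep 1, 0.55 in prep 2 and 0.23 in prep 3, none of which passed. Prep 2 held 28 months replicate 8, without which the value over all preps was 0.19 (adjusted p = 0.0449).

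Sall1, the transcription factor, had a slight rise at 28 months that lay close to the threshold. Its means were 28.6 ± 3.00, 30.3 ± 2.45, 31.6 ± 2.99, 31.6 ± 3.11 and 31.97 ± 5.86 CPM. The 3-month brains ranged from 22.8 to 35.3 CPM and the 28-month brains from 14.4 CPM in replicate 15 to 45.3 CPM in replicate 8, with medians of 28.7 and 32.5. The log2 fold change at 28 months was 0.16 ± 0.06 (adjusted p = 0.0495), and this call was lost on leaving out any of 23 of the 33 single brains of 3 and 28 months. Without the 2 libraries it was 0.20 ± 0.05 (adjusted p = 4.4e-04). In single preps the value was 0.26 (adjusted p = 0.00388), 0.28 (adjusted p = 0.299) and -0.07 (adjusted p = 0.737), the last becoming 0.05 without replicate 15.

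Siglech, of the Siglec family, rested on 1 library for the size of its change. At 3 months it ranged from 12.1 to 19.1 CPM (median 15.4). At 28 months 17 brains ranged from 13.2 to 28.9 CPM (median 17.3), and replicate 15 had 134 CPM. The ranges overlapped, and 7 of the 18 brains of 28 months, replicate 15 among them, lay above that of 3 months. With all libraries the log2 fold change at 28 months was 0.55 ± 0.16 (adjusted p = 0.00555), and without the 2 libraries it was 0.20 ± 0.06 (adjusted p = 0.00838). The call was lost with only the 2 ages fitted (0.53, adjusted p = 0.119) and with the score of clock output genes as a covariate (0.02, adjusted p = 0.936). Prep 3, which held replicate 15, gave 1.27 (adjusted p = 0.0558), and 0.30 (adjusted p = 0.0384) without it; preps 1 and 2 gave 0.002 and 0.33 (adjusted p = 0.994 and 0.315). At 24 months the value was 0.31 ± 0.16 (adjusted p = 0.219), and 0.27 ± 0.06 (adjusted p = 0.00105) without the 2 libraries. Of 5 genes listed as markers of plasmacytoid dendritic cells, the other known source of Siglech, 2 were tested in the brain, and Cox6a2 was higher (adjusted p = 0.00341), while Ccr9 was not called (0.398 against 0.308 CPM). Their summed level ran from 2.21 to 3.69 CPM at 3 months and from 2.93 to 17.9 CPM at 28 months (2.94 to 5.44 CPM without the 2 libraries), and their part in the level of Siglech was not tested.

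Brain 28 months replicate 8 had the highest level of its age for 8 of the 9 members, Siglech excepted, where it stood next to replicate 15. It held 104 CPM of Cx3cr1, 57.0 CPM of Tmem119 and 4.52 CPM of Fcrls. Replicate 15, by contrast, was low for P2ry12, P2ry13, Sall1 and Gpr34 and high for Siglech and Cx3cr1 (98.4 CPM). Without replicate 15 the SD of Cx3cr1 at 28 months was 11.9 CPM, still above the 3.75 CPM at 3 months. That of Siglech at 28 months went from 27.6 to 3.70 CPM, but that of Fcrls from 0.907 to 0.890 CPM. No SD was taken without replicate 8.

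Other genes of microglia gave a background for these values, and their lists were, like the members, chosen with results of these data known. The counts of these lists stand beside the 28.3% of all brain genes called at 28 months, 16.3% higher and 12.0% lower, and without the 2 libraries beside 34.1%, 17.5% and 16.6%. Of 20 further homeostatic microglia genes, 11 were higher and 2 lower at 28 months, and the list's median change was 0.25 on the log2 scale (12, 2 and 0.20 without the 2 libraries). Upk1b (1.18 ± 0.10), Cd33 (0.62 ± 0.10), an inhibitory sialic acid-binding receptor, and Crybb1 (0.57 ± 0.17) were the highest called. The 2 called lower were Gpr165 (-0.74 ± 0.16, adjusted p = 2.2e-04), an orphan receptor, and Olfml3 (-0.29 ± 0.09, adjusted p = 0.00687), a secreted glycoprotein. Fcrls was thus not the only gene of homeostatic microglia that fell. Of 18 genes shared by microglia and other myeloid cells, 15 were called, each higher, with a median of 0.52, above the 0.16 of the 9 members. C1qa (0.84 ± 0.14) and C1qb (0.67 ± 0.11), subunits of complement C1q, and Cd68 (0.71 ± 0.06), a lysosomal protein, led them. Their summed level rose from a median of 396 to 516 CPM. The count was 16 of 18 and the median 0.43 without the 2 libraries.

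Of 18 tested genes known from activated microglia, 13 were called at 28 months, each higher, and their median change was 0.61 on the log2 scale. Leaving out the 2 libraries gave 13 higher and 1 lower, Lpl, a lipoprotein lipase, and a median of 0.52. Cst7 (2.44 ± 0.28), a cystatin, Clec7a (2.37 ± 0.19), a receptor for beta-glucans, and Ccl3 (1.82 ± 0.28), a chemokine, were the highest. Clec7a and Cst7 stayed at low levels, 2.26 CPM and 0.705 CPM at 28 months. The summed level of all 19 listed genes had a median of 856 CPM at 3 months and 966 CPM at 28 months. Of the median log2 fold changes at 9 months, that of the members was 0.23 and that of the 20 further homeostatic genes 0.11. The shared myeloid genes had 0.15 and the activated genes 0.03.

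Among 14 transcription factors of microglia, 4 were higher and 1 lower at 28 months, where 16.3% of all genes were higher and 12.0% lower. The counts were 5 and 2 without the 2 libraries. Spi1 (0.61 ± 0.10, adjusted p = 5.7e-07), which encodes PU.1, Runx1 (0.54 ± 0.10, adjusted p = 7.2e-06) and Irf8 (0.44 ± 0.07, adjusted p = 1.2e-07) were among those that rose, and Tal1 fell (-0.21 ± 0.08, adjusted p = 0.0426). Smad2, Smad3 and Smad4, which carry signals of the TGF-beta pathway on which the homeostatic signature depends, gave 0.01, -0.06 and -0.13 and did not pass, although Smad4 was lower without the 2 libraries (-0.09, adjusted p = 0.0205). Cebpa gave 0.08, Mef2a 0.06, Mef2c -0.09, Maf 0.04, Hhex 0.09 and Sall3 -0.07, also without passing; Mef2a passed without the 2 libraries at 0.11 (adjusted p = 0.0321). Among 10 ligands and enzymes that make or remove ligands, 4 were higher and 1 lower, and without the 2 libraries 4 and 2, Il34 being the added lower call (-0.21, adjusted p = 0.00103). Pla1a (0.93 ± 0.12), a phospholipase that makes lysophosphatidylserine, Entpd2 (0.33 ± 0.09), an ectonucleotidase, Csf1 and Tgfb1 (0.25 ± 0.07) rose, and Cx3cl1 fell. Pla1a stayed low, at 1.33 CPM. Entpd1 gave -0.04, Nt5e -0.07, Abhd16a 0.06 and Abhd12 0.13, none of which passed. Of 10 tested receptor partners and relatives, 4 were called, each higher, namely Tyrobp (0.58 ± 0.11) and Hcst (0.91 ± 0.25), both adaptors of myeloid receptors, the ATP-gated channel P2rx4 (0.35 ± 0.11) and Nrros (0.345 ± 0.074), which anchors latent TGF-beta on microglia. Tgfbr1 (0.08), Tgfbr2 (0.035), P2ry6 (0.16), P2ry14 (-0.003), P2rx7 (0.13) and Siglece (0.20) did not pass, and Fcrl1 and Fcrl5, relatives of Fcrls, were too low to test. Tgfbr1 (0.14, adjusted p = 0.024) and P2rx7 (0.16, adjusted p = 7.9e-04) passed without the 2 libraries, which made 6 of 10 higher.

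Lists of other cells were read beside these values and the 28.3% of all genes called. Of 11 genes of border macrophages, which also make Csf1r and Cx3cr1, 2 were higher (Cd163 and Siglec1) and 1 lower (Dab2) at 28 months, a share close to that of all genes. The call of Dab2 was lost without the 2 libraries (adjusted p = 0.0547). For these 11 genes the summed level ran from 34.3 to 67.1 CPM at 3 months and from 34.7 to 61.9 CPM at 28 months. Of 5 tested genes of monocytes and neutrophils, 4 were higher, led by Ngp (2.71 ± 0.46) and Camp (2.70 ± 0.51), at summed levels of 0.325 to 2.60 CPM at 3 months and 1.02 to 19.5 CPM at 28 months, and 4 were higher without the 2 libraries too. Ccr2, which defines classical monocytes, was at 0.443 CPM at 3 months and 0.608 CPM at 28 months and was not called. Of 5 genes of red cells 3 were higher, as they were without the 2 libraries, with summed levels of 29.9 to 234 CPM at 3 months and 34.4 to 725 CPM at 28 months, the latter 34.4 to 313 CPM without the 2 libraries. Astrocyte genes had 1 of 6 higher (Aldh1l1) and 2 lower (Aqp4 and Gja1), and endothelial genes 1 of 6 higher (Pecam1) and 2 lower (Tek and Cdh5). Without the 2 libraries these counts were 0 and 2 for astrocytes and 1 and 3 for endothelium, with Cldn5 added. Of 6 oligodendrocyte genes Mobp was higher with and without them. The 5 choroid plexus genes were not called and had a median of -0.50. The 7 neuron genes had log2 fold changes between -0.06 for Stmn2 and 0.09 for Gad1 without passing (Gad1 passed without the 2 libraries, 0.11, adjusted p = 0.0323), and their summed median was 6248 and 6399 CPM at the 2 ages. The clock output genes, which follow the time of day, had 4 of 9 higher at 28 months, led by Ciart and Dbp, and 6 higher and 1 lower (Per2) without the 2 libraries. With a score of these genes as a covariate, 7 members passed at 28 months, but Siglech gave 0.02 (adjusted p = 0.936) and Tmem119 0.21 (adjusted p = 0.0824), while Fcrls gave -1.06. The part of these cells and of the time of day in the members' changes was not tested beyond these values.

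How the members varied together from brain to brain depended in part on the 2 libraries that stood apart. Over 82 libraries after removing prep means, log2 CPM of P2ry12 correlated with that of Gpr34 at r = 0.91 and with P2ry13 at r = 0.90; without the 2 libraries (n = 80) these were 0.89 and 0.84. Siglech and Gpr34 had r = -0.54 over all 82, the lowest value among the 8 members other than Fcrls, whereas over 80 libraries every pair of these 8 lay between 0.38 (Tmem119 with Gpr34) and 0.89. Cx3cr1 then correlated with Csf1r at 0.82, with Siglech at 0.80 and with P2ry13 at 0.80. Libraries of one set share depth, RNA quality and age composition, so these correlations are descriptions. Fcrls had no such partner among the members. Its r with the other 8 lay between -0.26 for Sall1 and 0.07 for P2ry12 over 82 libraries. When age means were also removed, Fcrls correlated with Cx3cr1 at 0.49, with Tmem119 at 0.50, with Siglech at 0.46 and with Csf1r at 0.40. Leaving out the 2 libraries, these became 0.46, 0.44, 0.52 and 0.55. Within an age, brains with more Fcrls tended to be those with more of these 4 members, while across ages Fcrls and Cx3cr1 went apart.

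Outside the set, the genes whose levels followed each member most closely over the 82 libraries were searched among the 14998 genes averaging 1 CPM or more. For Fcrls they were Fabp7 (r = 0.80), a fatty acid-binding protein of radial glia and astrocytes, Fam163a (0.74) and Hist1h2be (0.74). With age means removed these fell to 0.52, 0.39 and 0.40. For Cx3cr1 they included Cd37 (0.82) and Laptm5 (0.81), of which Laptm5 is abundant in microglia. For Tmem119 they were Selplg (0.90), Vsir (0.83) and Laptm5 (0.83), and for Csf1r Bin2 (0.76), Gpr37l1 (0.75) and Vsir (0.73). P2ry12 and P2ry13 had Itgam (0.85 and 0.835), a subunit of complement receptor 3, and Hpgds (0.85 and 0.84), a prostaglandin synthase of microglia. The mitochondrial transcripts mt-Nd1 (0.85) and mt-Co1 (0.84) stood in the same range for P2ry12 and P2ry13. Sall1 had Rapgef4 (0.91), Nckap1l (0.87) and Rassf2 (0.87). The closest genes of Siglech were S100b, Aif1 and S100a13 (0.91, 0.90 and 0.90), and those of Gpr34 were Abhd3, Gpm6b and Prrg1 (0.94, 0.91 and 0.91). Over the other 80 libraries, Sall1 alone had the same 3 closest genes, at 0.76 to 0.82. Fcrls then had Fabp7 (0.81), Gm10561 (0.78) and Gpr17 (0.78), of which Gpr17 was at 0.18 with age means removed. Cd37 and Laptm5 were no longer among the 3 closest of Cx3cr1, which included S100b (0.86) and Hpgds (0.84). P2ry12 had Abhd3 (0.79), Asrgl1 (0.78) and Hpgds (0.75), and P2ry13 had S100b (0.73) in place of mt-Co1. Tmem119 had Trem2 (0.815) in place of Laptm5, and Csf1r had Laptm5 (0.86) and Unc93b1 (0.82) beside Vsir (0.86). Siglech kept S100b at 0.79, and Gpr34 had mt-Nd4 (0.75), Luzp2 (0.73) and mt-Cytb (0.72).

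In the liver, which has no microglia, the same genes were read beside the brain. Fcrls did not exceed 3 counts in 14 of the 16 youngest livers nor in 13 of the 18 oldest, and it was not tested. One liver, 28 months replicate 4, held 37 counts of it (0.897 CPM). Tmem119 was at 1.17 ± 0.403 CPM and Siglech at 0.818 ± 0.765 CPM at 3 months, and Gpr34 at 0.197 ± 0.120 CPM. Csf1r was at 77.4 ± 34.4 CPM and Sall1 at 27.6 ± 4.50 CPM, in a table scaled separately from that of the brain. Of the 8 members tested, 0 passed the edgeR test at 9 months against 4.69% of 15579 genes, and 0 at 15 months against 7.32%. At an unadjusted p under 0.05 there were 2 and 2 members, and 3100 and 3274 of the 15579 genes. DESeq2 called 0 members at 9 and 2 at 15 months, and voom with quality weights 0 and 1. At 24 months 4 passed, Cx3cr1, P2ry12, P2ry13 and Csf1r, all higher and 0 lower, where 49.0% of genes were called, 25.0% higher and 24.0% lower. At 28 months 7 of 8 passed against 61.9% of genes, 6 of them higher (31.9% of genes) and Siglech lower (30.0%).

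For 6 of the 8 tested members the rise at 28 months was larger in the liver than in the brain, by the test of the difference given last. Cx3cr1 ranged from 0.420 to 3.81 CPM at 3 months (median 0.841) and from 0.970 to 9.68 CPM at 28 months (median 3.05), with a log2 fold change of 1.89 ± 0.28 (adjusted p = 1.8e-08). Csf1r ranged from 53.7 to 199.9 CPM (median 69.2) and from 87.3 to 493 CPM (median 170.2), with 1.27 ± 0.17 (adjusted p = 1.9e-09). The ranges of both genes overlapped between the ages, and 3 months replicate 12 was the highest of its age for 7 of the 8 tested members. P2ry13 rose by 1.38 ± 0.22, P2ry12 by 1.13 ± 0.17 and Sall1 by 0.73 ± 0.14 on the log2 scale (adjusted p = 1.2e-07, 3.5e-08 and 7.0e-06). For Sall1, 15 of 18 livers at 28 months lay above the 3-month range. Gpr34 rose by 1.93 ± 0.35 (adjusted p = 2.2e-06) but from 0.197 to 0.766 CPM, and without 28 months replicate 4 the value was 1.54. Siglech fell by 0.87 ± 0.30 (adjusted p = 0.00946), from a median of 0.661 to 0.263 CPM; without 3 months replicate 12 it was -0.56 and did not pass (adjusted p = 0.0818). In preps 1, 2 and 3 alone liver Siglech gave -1.39, -0.87 and -0.11 (adjusted p = 0.00674, 0.21 and 0.908), and with the clock score -0.58 (adjusted p = 0.122), so that the call held in prep 1 and was lost in these other fits. Tmem119 gave 0.01 ± 0.19 (adjusted p = 0.963) at 28 against 3 months, although it passed the test of all ages together. In prep 2 alone 1 of the 8 passed, Sall1 (0.63, adjusted p = 0.0398), while Cx3cr1 gave 1.25 (adjusted p = 0.0548) and Csf1r 0.605 (adjusted p = 0.104).

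Between successive ages 0, 7 and 3 of the 8 liver members passed. From 9 to 15 months 0 of 8 passed the edgeR test against 0.0514% of genes. An unadjusted p under 0.05 was found for 1 member and for 670 of the 15579 genes. DESeq2 and voom with quality weights also called 0 members. From 15 to 24 months 7 of 8 passed, each higher, against 36.0% of genes called and 21.6% higher, the exception being Gpr34 (0.74 ± 0.37, adjusted p = 0.102). Fitted singly, preps 1, 2 and 3 gave counts of 0, 5 and 0. Siglech (0.81 ± 0.31, adjusted p = 0.0352) and Tmem119 (0.50 ± 0.20, adjusted p = 0.0356) were among the 7. The call of Siglech was lost with no filter, with only the 2 ages and with the clock score (adjusted p = 0.0686, 0.0568 and 0.0512), and that of Tmem119 with no filter and with voom (adjusted p = 0.0776 and 0.0889). P2ry13 (0.75 ± 0.22) also lost its call with voom, at 0.36 (adjusted p = 0.0726). With the replicate block Tmem119 gave 0.42 (adjusted p = 0.0899). From 24 to 28 months 3 of 8 passed, each higher, against 15.3% of genes called and 6.18% higher, namely Gpr34 (1.26 ± 0.32, adjusted p = 0.00394), Sall1 (0.46 ± 0.14, adjusted p = 0.0128) and P2ry12 (0.45 ± 0.16, adjusted p = 0.0463), and that count was 0 with only the 2 ages fitted and in preps 2 and 3 alone. In the test of the 4 later ages together all 8 passed, Siglech and Tmem119 included (adjusted p = 0.00561 and 0.00743), against 71.5% of genes.

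**Figure D4:**
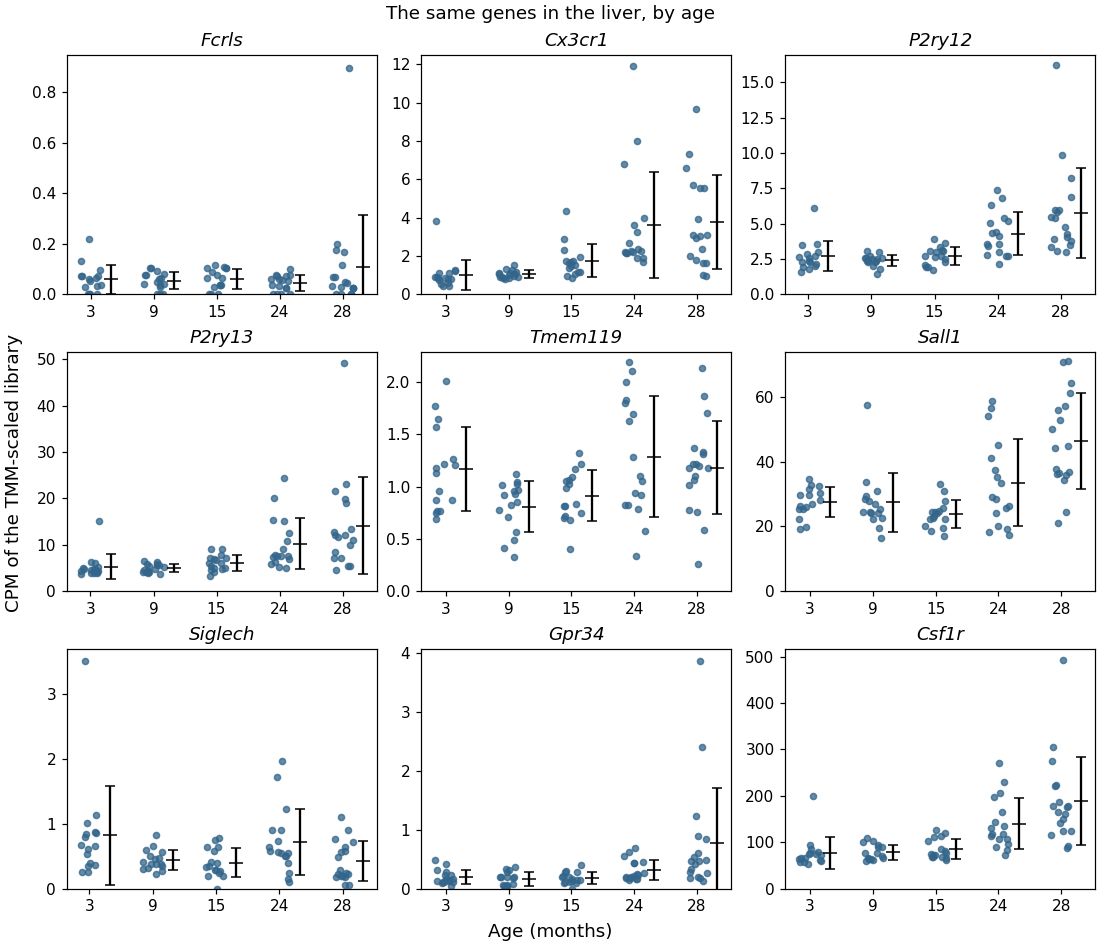
Level of each member in every liver library by age, in CPM of the scaled library. Points are libraries and black bars the mean ± SD, cut at 0 on the axis. Csf1r, Cx3cr1, P2ry12 and P2ry13 have higher means and wider spreads at 24 and 28 months, and Fcrls lies near 0 in most livers.

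All 7 genes listed for Kupffer cells, the macrophages of the liver, were higher in the liver at 28 months, where 61.9% of all genes were called and 31.9% were higher; Csf1r is itself on that list. Their summed level was 317 to 1160 CPM at 3 months and 516 to 4513 CPM at 28 months. The 3 with the highest log2 fold changes were Marco (3.04 ± 0.53), Cd5l (1.67 ± 0.21) and Timd4 (1.56 ± 0.20). The 18 shared myeloid genes were all higher there too (their median change was 1.53 on the log2 scale), and so were the 7 genes of monocytes and neutrophils, at summed levels of 7.13 to 50.1 CPM and 12.3 to 373 CPM. Of the clock output genes, 6 of 9 were higher in the liver, led by Ciart (4.03 ± 0.57) and Per3 (3.58 ± 0.42), with a list median of 1.65, and the 2 that run opposite to them, Arntl and Npas2, were lower (-0.94 and -1.36). With the clock score as a covariate the liver change of Sall1 was 0.415 (adjusted p = 0.0221), beside 0.73 without it, and the calls of the other members higher at 28 months also held. The part of these cells in the members' liver changes was not tested. In the brain, 5 of these 7 genes were too low to test: Clec4f, Vsig4, Cd5l and Marco were at most 0.0368 CPM on average at either age and Timd4 at most 0.0670 CPM. The other 2, Adgre1 (0.41 ± 0.08, adjusted p = 4.8e-05) and Csf1r, which microglia also make, were higher there at 28 months.

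The change from 3 to 28 months differed between brain and liver for 7 of the 8 members that could be tested, against 49.2% of 14035 genes. It was less positive in the brain for Gpr34 (difference, brain minus liver, -1.85 ± 0.34 on the log2 scale, adjusted p = 1.4e-06), Cx3cr1 (-1.58 ± 0.26, adjusted p = 1.9e-07), P2ry13 (-1.24 ± 0.23, adjusted p = 3.5e-06), Csf1r (-1.18 ± 0.18, adjusted p = 7.4e-09), P2ry12 (-1.05 ± 0.18, adjusted p = 4.7e-07) and Sall1 (-0.61 ± 0.16, adjusted p = 6.7e-04). For Siglech the difference was 1.37 ± 0.32 (adjusted p = 1.4e-04), and 1.02 ± 0.27 without the 2 brain libraries. Tmem119 gave 0.22 ± 0.19 (adjusted p = 0.332). In preps 1 and 3 alone 6 of the 8 differences passed, but in prep 2 alone they lay between -0.81 for Cx3cr1 and 1.18 for Siglech and did not pass (adjusted p between 0.121 and 0.835).

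**Figure D5:**
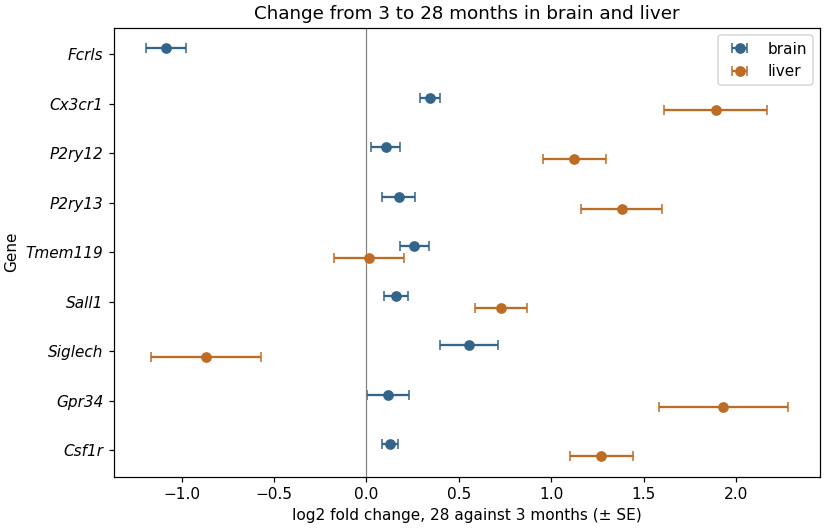
Log2 fold change from 3 to 28 months of each member in brain and liver, with its SE. Fcrls has no liver value because it was not tested there. The liver points of Cx3cr1, P2ry12, P2ry13, Gpr34 and Csf1r lie at 1.13 or above, while the brain points of these genes lie at 0.34 or below.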

How the data were processed

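The members, gene lists and tests were chosen with earlier results of these data known. The authors deposited whole-number read counts per Ensembl gene, 1 table per tissue; no column was left unused (0 columns). The submitters' processing notes name cutadapt 2.8, HISAT2 2.1.0, SAMtools 1.9, featureCounts and Subread 2.0.1 with the builds GRCm38.p6 and mm10. Whether reads were counted by strand, and how shared reads were treated, is not given in the sources used here. Per the labels' protocols, libraries were stranded TruSeq libraries of polyadenylated RNA. The labels call the 3 preps batches.

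From the counts, each tissue was fitted with edgeR 4.0.16 in R 4.3.3 (filterByExpr by age, TMM scaling, quasi-likelihood model with age and prep, two-sided tests, Benjamini-Hochberg adjustment over all genes tested). The SE of a fold change was derived from the F statistic, as |log2 fold change| over its root. The model was also run on simulated data, and the outcome is not reported here. Levels are CPM of the TMM-scaled library, and correlations use log2 CPM (prior count 2). The floor of 3 counts covers counting error only. Differences between tissues are the tissue by age term of 1 fit. Symbols were matched for 55144 of 55471 identifiers; coordinates and exon lengths are those of a GENCODE annotation of GRCm38, which may differ from the authors' annotation. All members were named with values. From the other lists the called genes with the 3 highest and 3 lowest changes could be named, with every ligand, partner and transcription factor, and for likeness the 3 highest Pearson correlations. Some genes that this rule names are not reported here. Alternatives were other scalings, filters, DESeq2 1.42.0, voom in limma 3.58.1, designs with other terms, single preps and left-out libraries. The p-values measure the spread between mice.

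Replicate numbers restart at each age and name different mice, so they pair no brain libraries across ages: the mean correlation of deviations was 0.013 for same-numbered pairs and 0.003 for others. Brain and liver libraries of 1 age and number are 1 mouse, per the labels, and the fit with mouse as a replicate block is given in the closing section.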

Additional observations from a re-analysis of the deposited data

Results flagged for a closer look

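For 7 members the change from 3 to 28 months differed between brain and liver in the test of the difference (edgeR, adjusted p between 7.4e-09 and 6.7e-04). Brain minus liver, on the log2 scale, the difference was -1.579 for Cx3cr1, -1.049 for P2ry12, -1.237 for P2ry13, -0.607 for Sall1, 1.367 for Siglech, -1.854 for Gpr34 and -1.175 for Csf1r.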

How the results depend on the processing

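The fall of Fcrls from 3 to 28 months kept its call in all 49 alternatives run for it, between -1.41 and -0.90. The number of brain members called at 28 against 3 months was 6, with 9 in voom (P2ry12, P2ry13 and Gpr34 added), 5 in DESeq2, 4 with no filter (Sall1 and Csf1r lost) and 4 with only the 2 ages, 5 to 8 on leaving out 1 brain, but 2, 2 and 2 in preps 1, 2 and 3 alone, and 3 in prep 3 without 28 months replicate 15. At 9 against 3 months the 1 member called became 6 with voom, 0 with no filter, 0 with a mean of at least 1 CPM, 0 in each prep alone, 5 with only the 2 ages fitted, 4 without both libraries that stood apart, and 1 to 3 on leaving out either of them. At 15 against 3 months 1 became 7 with voom, 0 in each prep alone, 5 with only the 2 ages, 2 with the clock score, 3 without both libraries and 1 to 3 without either. At 24 against 3 months 5 became 9 with voom, 1 in each prep alone, 8 with only the 2 ages, 8 with the clock score, 9 without both libraries and 5 to 9 without either; replicate 15 of 28 months gave the 9. At 24 against 15 months voom called 2. At 28 against 24 months the 1 call became 0 in each prep alone and with only the 2 ages, and 2 with the clock score. For all ages together 5 became 9 with voom, 2 with no filter, 2, 1 and 1 in preps 1, 2 and 3, 8 with the clock score, 9 without both libraries and 5 to 9 without either. In the liver, 15 against 3 months had 2 members with DESeq2, 1 with voom and 1 with no prep term; 24 against 3 months had 1 in prep 1 and 1 in prep 2; 28 against 3 months had 1 in prep 2; 24 against 15 months went from 7 to 0 in preps 1 and 3; 28 against 24 months went from 3 to 6 with voom, 1 with the clock score and 0 in prep 2, prep 3 and with only the 2 ages. The differences between tissues went from 7 to 0 in prep 2. The direction turned in prep 3 alone for brain P2ry12 (-0.071), P2ry13 (-0.051), Sall1 (-0.072) and Gpr34 (-0.200), and all 4 were positive there without replicate 15 (0.012 to 0.118). Liver Tmem119, near 0, turned with voom (-0.159), no filter (-0.021), prep 1 (-0.099) and prep 3 (-0.085), and ran from -0.050 to 0.092 on leaving out 1 liver. Single preps have fewer samples; the cause of the other shifts was not tested. DESeq2 gave Siglech no adjusted p at 28 months. Leaving out the 2 libraries, prep 3 without replicate 15, single livers and the alternatives for successive ages in the liver were chosen after seeing the data.

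With the replicate block by number, 5 brain members were called at 28 against 3 months, 4 for all ages together and 7 in the liver at 28 months. With mouse as the replicate block, 7 of 8 differences between tissues passed, and the block changed no count by over 1.5 times. Liver levels of Fcrls and, in some livers, Gpr34 and Siglech were at the floor of 3 counts, where depth limits any comparison.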
